A study of Drosophila melanogaster with 4 samples.

Results

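The regions described here are H3K27me3 peaks listed after Cut knockdown that overlap, by not a single base, any H3K27me3 peak of the control or any H3K27ac peak of either genotype. They were chosen by called H3K27me3 and H3K27ac in both genotypes, that is by the overlap of the 4 peak lists. On X, 2L, 2R, 3L, 3R and 4 of build dm6 there were 2376 such regions among the 18692 peaks of the knockdown H3K27me3 list (12.7%), and among 74390 peaks in the 4 lists of the series. They are called H3K27ac-free peaks below, and "free" says that no H3K27ac peak was listed there, not that the mark was absent. The other knockdown H3K27me3 peaks are 13881 that are also knockdown-only but overlap H3K27ac, and 2435 that overlap a control H3K27me3 peak.

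The series profiled histone marks by chromatin immunoprecipitation and sequencing in dsRed-positive nuclei of Drosophila melanogaster embryos, sorted as neuroblasts, the progenitors of the fly's neurons and glia. The knockdown genotype, labelled Cut_KD, carried RNA interference against Cut, a homeodomain transcription factor encoded by ct, and was set against embryos labelled Control. Both genotypes carried wor-gal4 and UAS-dsRed. There was 1 library for each mark in each genotype, so no difference has a replicate check, no test was made, and the values are descriptions. Beyond these transgenes, the control genotype is not stated in the labels, nor is what drove the interference. Embryos were collected over 16 h at 25 °C and so span many stages, wor-gal4 is active across the nervous system from stage 11, and by the labels the sorted nuclei were at least 50% pure. Each library pooled the nuclei of many embryos, and all other nuclei in a sort add their chromatin to each list. The labels give 1 catalogue number for both antibodies, and the overlap rule compares different marks only if that is a slip.

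H3K27me3 is laid down by the methyltransferase E(z) in Polycomb repressive complex 2, and in flies it usually forms wide domains over silent developmental genes such as the Hox clusters. H3K27ac marks active promoters and enhancers and occupies the same lysine, so that 1 histone tail cannot carry both. A region with H3K27me3 and no H3K27ac is therefore the classical configuration of Polycomb-silenced chromatin. Some genomic regions listed with neither mark are simply below the threshold of the peak caller.

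The numbers of reads are unknown, since peak lists hold no counts, and peak number and width both grow with sequencing depth when the threshold is held. The knockdown lists held 18692 H3K27me3 and 25519 H3K27ac peaks over 19.5 and 14.8 Mb, and the control lists held 4238 and 25941 peaks over 4.68 and 22.2 Mb. An H3K27ac peak lay on 20 of 20 marker genes of the knockdown and on 19 of 20 of the control. These are neuroblast, neuron, glia, muscle and epidermis markers, and the epidermis marker grh is also on the neuroblast identity list used below. Most genes carry such a peak, since only 18.2% of all protein-coding genes had H3K27ac in neither genotype. Presence of a peak on these markers therefore does not separate neuroblasts from the other cell types. For the 7 neuroblast markers the summed H3K27ac cover was 28.3 kb in the knockdown and 27.3 kb in the control. For the 3 muscle markers it was 17.7 kb in the knockdown and 29.99 kb in the control. In the same order it was 15.3 and 14.6 kb for 5 neuron markers, 3.62 and 4.64 kb for 3 glia markers and 9.89 and 13.4 kb for 2 epidermis markers. The whole H3K27ac list also covered less in the knockdown, 14.8 Mb against 22.2 Mb. Among the 7 neuroblast genes, ase had 0.472 kb of H3K27ac in the knockdown and none in the control. Knockdown and control cover was 2.40 and 1.15 kb for mira and 17.1 and 14.4 kb for pros. It was lower in the knockdown for wor (0.996 and 1.35 kb), dpn (0.044 and 0.533 kb), insc (3.82 and 5.25 kb) and CycE (3.48 and 4.59 kb). The part of other cell types in the regions below was not tested.

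The H3K27ac-free peaks were short. Their median width was 489.5 bp (exact binomial 95% interval of the median 470 to 515 bp, n = 2376), against 756 bp for knockdown-only peaks on H3K27ac (744 to 767 bp) and 1253 bp for peaks that overlap a control peak (1178 to 1323 bp). Only 21 of them (0.884%, 95% exact Clopper-Pearson interval 0.548 to 1.35%) reached 2000 bp, as did 8.67% of the knockdown-only peaks on H3K27ac. These intervals and all others given cover counting error only. The narrowest peak of the knockdown list spans 193 bp, and 68 H3K27ac-free peaks have exactly that width. In all they covered 1396 kb, against 13330 kb for the knockdown-only peaks on H3K27ac and 4758 kb for those that overlap a control peak.

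Peak fold enrichments and -log10 q values are the authors' own and were compared within the knockdown list alone. The median fold was 1.89 for the H3K27ac-free peaks, 1.88 for knockdown-only peaks on H3K27ac and 2.05 for peaks overlapping a control peak. The median -log10 q was 1.57, 1.60 and 2.31 in the same order. A fold of at least 2 was reached by 29.4% (27.6 to 31.3%) of the H3K27ac-free peaks and by 22.3% (21.6 to 22.96%) of those on H3K27ac. The rule chose the peaks from these lists, so width, fold and q describe the set and support nothing beyond it.

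Absence of H3K27ac went with width, and overlap by a single base is met more readily by a wide peak. The 16257 knockdown-only peaks were divided by width into 5 classes of like size. Of the narrowest class (193 to 347 bp) 25.9% had no H3K27ac peak (24.4 to 27.5%), and of the widest class (1303 to 17720 bp) 3.90% (3.26 to 4.62%). The share was lower in each wider class, although the second (16.5%) and the third (15.8%) lie within each other's intervals. At the edge of the rule, 126 H3K27ac-free peaks ended within 100 bp of a peak of another list, with a median width of 567.5 bp and a median fold of 1.83. Just outside it, 574 knockdown peaks overlapped the other lists by 100 bp or less, with a median width of 626 bp and a median fold of 1.84.

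Against the 2376 H3K27ac-free knockdown-only peaks, the same rule turned round gave 1014 peaks found only in the control and free of H3K27ac. The knockdown-only set made up 12.7% of the knockdown H3K27me3 list, and the control-only set 23.9% of the control list. Among the peaks found only in 1 genotype the H3K27ac-free share was 14.6% (14.1 to 15.2%) in the knockdown and 59.4% (1014 of 1706, 57.1 to 61.8%) in the control. The knockdown-only set covered 1396 kb with a median width of 489.5 bp, and the control-only set covered 753 kb with a median width of 692 bp. Both lists thus hold H3K27ac-free peaks that the other genotype lacks, and the knockdown list, which is the longer, holds more of them in number and fewer as a share.

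The share without H3K27ac was higher on X than on the autosomes. Of the knockdown-only peaks on X, 23.2% (492 of 2124, 21.4 to 25.0%) were H3K27ac-free, against 13.3% (1884 of 14133, 12.8 to 13.9%) on the autosomal arms. The shares were 15.8% on 2L, 12.1% on 2R, 14.5% on 3L and 11.5% on 3R, and on the small chromosome 4 it was 20.8% of only 48 peaks (10.5 to 35.0%). X was above the autosomes in every width class, at 33.0 and 24.7% among the narrowest peaks and at 11.2 and 3.05% among the widest. Per Mb up to the last annotated gene, X held 21.3 H3K27ac-free peaks and the other large arms between 15.2 (3R) and 19.4 (2L). The male X of flies is dosage-compensated by acetylation of H4K16, a mark not measured here.

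**Figure D1:**
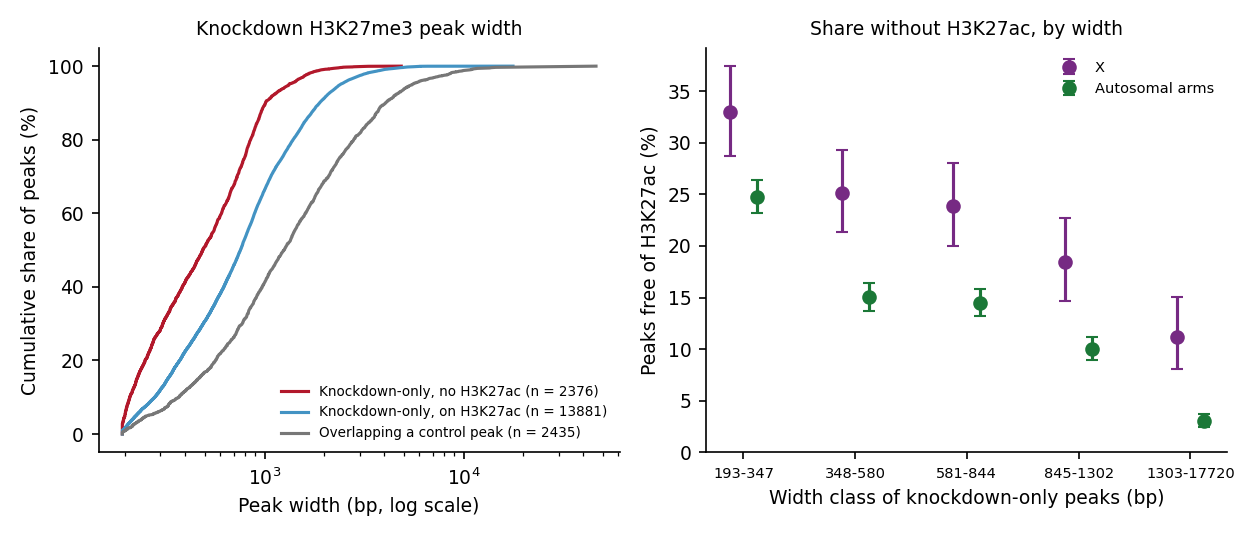
Left, cumulative share of knockdown H3K27me3 peaks (%) by width (bp, log scale) for the 2376 H3K27ac-free peaks, the 13881 knockdown-only peaks on H3K27ac and the 2435 that overlap a control peak. Right, share (%) of knockdown-only peaks that are H3K27ac-free, by width class, on X and on the autosomal arms, with 95% exact Clopper-Pearson intervals. The H3K27ac-free peaks are the shortest class, and the X share lies above the autosomal one in all 5 classes.

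X also carried less of both marks. H3K27ac peaks covered 9.09% of X in the knockdown and 11.1% in the control. Over the other large arms the range was 10.7 to 12.9% in the knockdown and 16.4 to 19.4% in the control. The median gap from an H3K27ac-free peak to the nearest H3K27ac peak of either genotype was 1.89 kb on X and between 1.07 kb (2R) and 1.42 kb (2L) on the other large arms. Control H3K27me3 covered 2.06% of X and between 3.00 and 4.93% of those arms. The sparser H3K27ac of X moves with its share of H3K27ac-free peaks, and its part in that share was not tested.

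None of these peaks overlaps H3K27ac, by the rule. The median gap to the nearest H3K27ac peak of either genotype was 1.33 kb, 893 peaks (37.6%) had one within 1 kb, and the most remote lay 22.7 kb away. The nearest control H3K27me3 peak had a median gap of 12.04 kb (quartiles 3.55 and 32.8 kb), in a list of 4238 peaks against the 25519 and 25941 of the H3K27ac lists, so the gaps to the marks are not to be compared with each other. For knockdown-only peaks on H3K27ac the median gap to control H3K27me3 was 18.2 kb. A control H3K27me3 peak lay within 5 kb of 30.9% of the H3K27ac-free peaks (29.1 to 32.8%) and of 18.6% of those on H3K27ac (17.96 to 19.3%). Another H3K27ac-free peak was on median 16.0 kb away (quartiles 5.88 and 36.7 kb). Within the knockdown H3K27me3 list no 2 peaks lie closer than 773 bp, which bounds the gap between H3K27ac-free peaks from below.

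Peaks of higher fold lay more often near the H3K27me3 of the control. Of the 51 H3K27ac-free peaks with a fold of 2.5 or more, 34 (66.7%, 52.1 to 79.2%) lay within 5 kb of a control H3K27me3 peak. The share was 43.2% (39.4 to 47.1%) of the 648 peaks with a fold between 2 and 2.5 and 25.1% (23.04 to 27.3%) of the 1677 below 2. Among knockdown-only peaks on H3K27ac the shares in the same 3 classes, from high to low fold, were 33.3, 23.8 and 17.1%. The strongest H3K27ac-free peaks were also the shortest, with a median width of 230 bp at a fold of 2.5 or more and 530 bp below 2, and fewer of them lay on a protein-coding gene (41.2 and 69.3%).

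**Figure D2:**
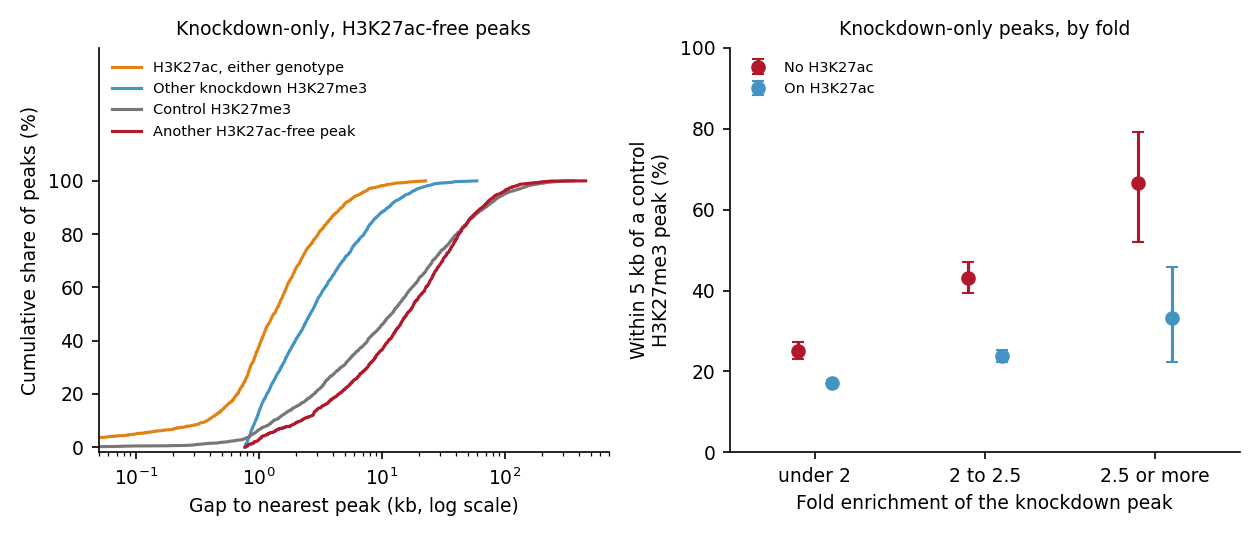
Left, cumulative share (%) of the 2376 H3K27ac-free peaks by gap (kb, log scale) to the nearest H3K27ac peak, other knockdown H3K27me3 peak, control H3K27me3 peak and other H3K27ac-free peak. Right, share (%) of knockdown-only peaks within 5 kb of a control H3K27me3 peak by fold class, without and with H3K27ac, with 95% exact Clopper-Pearson intervals. The lists differ in length, so the curves do not compare nearness between marks, and the share near control H3K27me3 is 25.1% at a fold under 2 and 66.7% at 2.5 or more.

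To see whether the peaks are pieces of larger H3K27me3 stretches, knockdown H3K27me3 peaks less than 3 kb apart were joined into chains. Of the H3K27ac-free peaks, 20.8% (19.2 to 22.5%) were in a chain with a peak that overlaps control H3K27me3, against 10.6% (10.1 to 11.1%) of the knockdown-only peaks on H3K27ac. Another 37.1% were in chains with knockdown-only peaks on H3K27ac. The other 42.05% joined no peak of another kind, 910 of them standing alone and 89 in chains of their own kind. Peaks beside a control domain had a median fold of 1.99 and those standing alone 1.87.

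The 5 peaks of highest fold lay on or nearest to genes of transcription factors. The first, with a fold of 3.12 over 490 bp (3L:21587695-21588184), lies on TfAP-2, a transcription factor gene, 0.787 kb from a control H3K27me3 peak, and ranks 4th by fold in the whole knockdown list. The second (fold 3.08, 237 bp, 2L:3661180-3661416) lies 1328 bp from Drgx, a paired-type homeobox gene. Next come a peak on the Pax gene toe (2.92, 3L:12431005-12431259), 1 at 4157 bp from the forkhead gene fd102C (2.90, 4:848687-848905) and 1 on the Krüppel-like factor gene dar1 (2.88, 3L:3627929-3628174). Of the other 5, with folds from 2.77 to 2.83, 1 lies on CG9380 and 1 on fz2, a Wnt receptor gene. The rest lie 1247 bp from MsrA, 23975 bp from the zinc finger gene disco and 86629 bp from eIF4B. The 10 span 207 to 490 bp, and 6 of them lie within 5 kb of a control H3K27me3 peak.

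The widest peaks were of ordinary fold, from 1.78 to 2.26. The widest spans 4864 bp inside Ptp61F (3L:1455159-1460022, fold 1.95) and is 223rd by width in the list. The next lies 17.8 kb from bi (X:4391734-4395049, 3316 bp). It is followed by 1 of 3017 bp at 13.0 kb from disco-r (X:16161985-16165001) and 1 of 2948 bp on Ubx (3R:16666928-16669875). Of the 10 widest, 3 are on 2L in the neighbourhood of drl and CG17564, and 3 overlap a protein-coding gene. A control H3K27me3 peak lay within 5 kb of 8 of the 10.

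By place in genes, 65.6% of the H3K27ac-free peaks (63.7 to 67.5%) overlapped a protein-coding gene span, against 80.8% (80.1 to 81.4%) of knockdown-only peaks on H3K27ac and 54.5% (52.5 to 56.4%) of peaks that overlap a control peak. An end of a gene was within 500 bp of 18.2% of them (16.7 to 19.8%) and of 34.0% (33.2 to 34.8%) of those on H3K27ac. The peaks on H3K27ac are also wider, and the part of width in this difference was not tested. A further 29.8% lay outside every annotated gene, and 17.7% lay more than 5 kb from any protein-coding gene. The annotation used gives neither strand nor transcript starts, so which end holds the promoter is not known here.

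At least 1 base of an H3K27ac-free peak lay on 1241 of 13922 protein-coding genes (8.91%). Of these, 989 held a single peak and 26 held 5 or more, and 843 (67.9%) had no control H3K27me3 anywhere on the gene, against 88.97% of all protein-coding genes. The genes with such a peak are longer, at a median of 14.1 kb against 2.16 kb of all genes. In 406 of the 1241, all of the knockdown H3K27me3 on the gene came from H3K27ac-free peaks. The share of genes with such a peak followed gene length, at 2.9% under 2 kb, 4.97% from 2 to 5 kb, 13.9% from 5 to 20 kb, 40.7% from 20 to 50 kb and 73.6% at 50 kb or more. By bases, however, the cover was even, between 0.868 and 1.01% of gene bases in all 5 length classes. The whole knockdown H3K27me3 list, in contrast, covered 23.4% of the bases of genes under 2 kb and 9.06% of those of 50 kb or more.

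**Figure D3:**
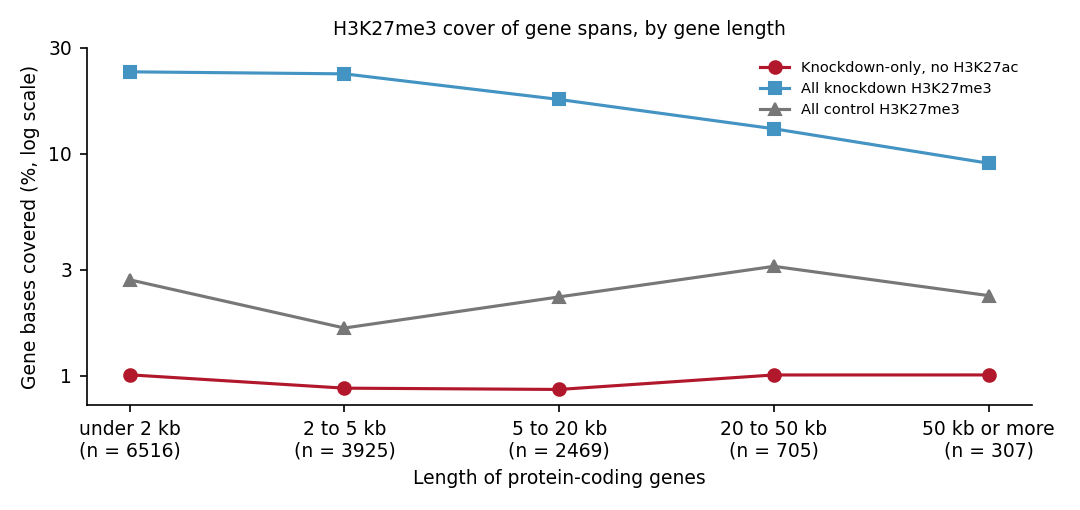
Share of the bases of protein-coding gene spans (%, log scale) under H3K27ac-free knockdown-only peaks, under all knockdown H3K27me3 and under all control H3K27me3, for 5 classes of gene length. The H3K27ac-free cover stays between 0.868 and 1.01%, whereas the whole knockdown list covers 23.4% of the bases of the shortest class and 9.06% of those of the longest.

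The genes with most bases under H3K27ac-free peaks were long. The rule bars control H3K27me3 from these peaks, so a ranking by them favours genes with more H3K27me3 cover in the knockdown. The whole knockdown H3K27me3 list also covered 19.5 Mb, against 4.68 Mb for the control list. Ptp61F, a tyrosine phosphatase gene (3L:1342493-1475257), held 8 such peaks over 11.2 kb. Its total H3K27me3 cover was 47.3 kb in the knockdown and 4.62 kb in the control, and its H3K27ac cover was 17.5 kb in the knockdown and 24.6 kb in the control. Con, which encodes the cell adhesion protein Connectin, held 8 peaks over 7.54 kb, with 20.2 kb of H3K27me3 in the knockdown and 8.89 kb in the control. Cph, a zinc finger transcription factor gene on X, held 14 peaks over 7.35 kb, with 25.1 kb of H3K27me3 in the knockdown and 7.84 kb in the control. At Cph the 14 peaks were spread over the whole gene, 1.10 to 95.8 kb from its lower-coordinate end, and each was shorter than 1 kb.

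The T-box gene bi, known as optomotor-blind, held 8 peaks over 6.45 kb, with 20.7 kb of H3K27me3 in the knockdown and 8.67 kb in the control. H3K27ac covered 1.64 kb of bi in the knockdown and 3.04 kb in the control, the least among the 10 genes. The founder-cell adhesion gene kirre (6 peaks, 5.32 kb) and Dys, the dystrophin gene (6 peaks, 4.15 kb), had 14.8 and 12.4 kb of H3K27me3 in the knockdown and none in the control. No control H3K27me3 lay on 88.97% of all protein-coding genes, but their median length is 2.16 kb, against 394 kb for kirre and 136 kb for Dys. The RNA-binding protein gene bru3 held 10 peaks over 5.34 kb and CG32816, whose span on X encloses ac, sc and ase, 8 over 5.53 kb. Myo81F, a myosin gene that reaches far into pericentromeric chromatin, held 16 peaks over 8.28 kb, which is 0.421% of its length.

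Along Ptp61F, from its lower-coordinate end, the gap from the 8 peaks to the nearest H3K27ac peak was 4.44, 3.16, 0.533, 0.817, 0.844, 0.999, 1.71 and 1.25 kb. The span of Ptp61F encloses other genes, among them SA2, which encodes a cohesin subunit, and CG9173. The body of CG9173 was covered by an H3K27ac-free peak over 1.71 of its 2.27 kb, with no control H3K27me3. No H3K27ac-free peak touched SA2.

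At the other end of the size range, 49 genes (0.352%) had at least 50% of the body under such a peak. Of these, 47 were shorter than 2 kb, 48 had no H3K27ac in either genotype and none had control H3K27me3, which the rule largely fixes for short genes mostly under such a peak. Among genes of at least 1 kb the highest shares were those of CG13048 (79.7%), CG9173 (75.1%), CG6901 (74.0%), CG4666 (65.2%), CG14424 (64.1%) and the gustatory receptor gene Gr10b (64.1%). These were followed by sphe (62.8%), JMJD7 (62.3%), which encodes a protein with a Jumonji domain, the neprilysin-like gene Nepl8 (61.8%) and CG12507 (61.6%). Pburs, which encodes a subunit of the neurohormone bursicon, lies wholly inside a peak of 2475 bp (2L:14415508-14417982). It had no control H3K27me3.

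The proneural genes achaete (ac) and scute (sc), bHLH factors that select neural precursors, lie in a stretch of X with little of either mark. The gene ac (X:370031-370947) was covered over 0.544 of its 0.917 kb, and sc (X:396060-397497) over 0.605 of its 1.44 kb. From ac to sc, over 27.5 kb, the knockdown H3K27me3 cover was 2.34 kb, all of it in 4 H3K27ac-free peaks, against 0.636 kb in the control. No H3K27ac peak of either genotype lay there. Farther on, from ac to ase, 7 H3K27ac-free peaks made up 4.12 of 6.92 kb of knockdown H3K27me3. No H3K27ac-free peak lay on ase itself, which marks neuroblasts.

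**Figure D4:**
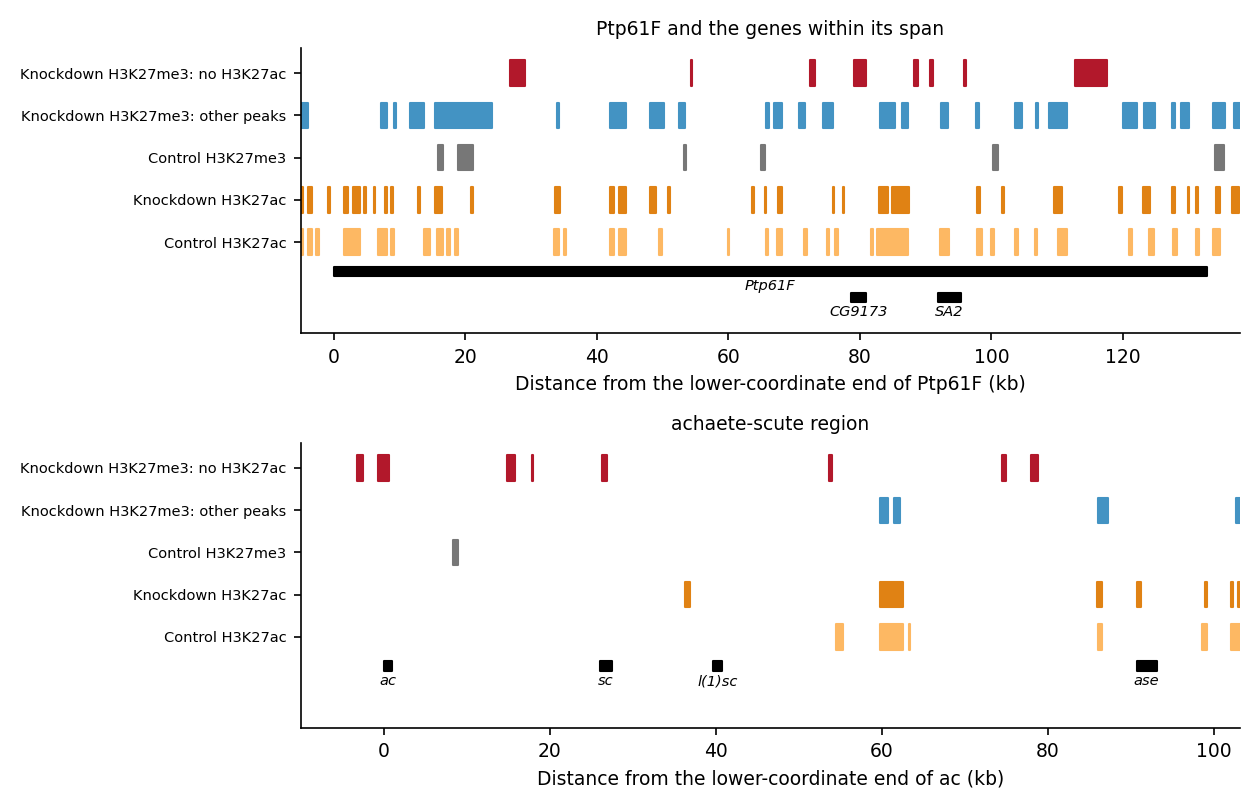
Peaks at Ptp61F (top) and the achaete-scute region (bottom), plotted by distance in kb from the lower-coordinate end of Ptp61F and of ac, with gene spans as black bars. H3K27ac-free knockdown-only peaks are on the first row, and the rows below hold other knockdown H3K27me3, control H3K27me3, knockdown H3K27ac and control H3K27ac. From ac to sc all knockdown H3K27me3 (2.34 kb) is in the first row and the H3K27ac rows are empty.

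Some 50 kb windows held several peaks. They were ranked by bases under H3K27ac-free peaks, and by the rule this favours windows with more H3K27me3 cover in the knockdown. The first, on 2L (2L:19270001-19320000), had 5 H3K27ac-free peaks over 9.27 kb and only CG17564 and CG10750 as genes. Its H3K27me3 cover was 15.6 kb in the knockdown and 0.326 kb in the control, and its H3K27ac cover 1.39 kb in the knockdown and 5.58 kb in the control. A neighbouring window (2L:19190001-19240000), over the Ryk-type Wnt receptor gene drl, held 6 peaks over 7.74 kb, with 19.6 kb of H3K27me3 in the knockdown and 2.43 kb in the control. On X, a window without any protein-coding gene (X:16150001-16200000) held 7 peaks over 7.95 kb, with 16.8 kb of H3K27me3 in the knockdown and 6.07 kb in the control. Other dense windows covered Ptp61F, bi, Lim1, a LIM homeobox gene, and the zinc finger gene elB together with Pburs. The most peaks in a window of this ranking were 8, over 6.70 kb (3L:6890001-6940000).

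The Hox genes, classical Polycomb targets, already carried wide control domains. H3K27ac-free peaks lay on Ubx (4 peaks, 4.35 kb), Antp (3 peaks, 2.60 kb), pb (0.528 kb), Scr (0.433 kb) and Abd-B (0.274 kb), and on none of abd-A, lab and Dfd. That is 5 of 8 genes, against 8.91% of all protein-coding genes, but 6 of the 8 are at least 20 kb long. By bases the cover was 2.43%, against 0.957% of all gene bases. Of the 184.8 kb of knockdown H3K27me3 on the 8 genes, 4.43% was in H3K27ac-free peaks. Over the whole knockdown list it was 1396 kb of 19.5 Mb. At Ubx the peaks lay 0.606, 1.31, 0.755 and 1.08 kb from control H3K27me3, with folds of 2.03, 2.49, 2.15 and 2.43. The 12 H3K27ac-free peaks from Ubx to Abd-B made up 9.58 of 188 kb of knockdown H3K27me3, where the control had 113 kb.

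The targeted gene itself, ct (X:7608428-7678859), held 5 of these peaks over 2.30 kb. H3K27me3 on ct covered 5.36 kb in the knockdown and 2.49 kb in the control, and H3K27ac 2.42 kb in the knockdown and 1.01 kb in the control. The strongest peak (X:7629454-7629678) had a fold of 2.59 and lay 3.78 kb from control H3K27me3, and the widest spans 1199 bp. No other gene of the cut and cohesin list of 12 held one, SA1 included. Peak lists measure no transcript, so the depth of the knockdown was not analysed here.

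In the cell death locus, whose products hid, grim, rpr and skl block inhibitors of apoptosis, 9 H3K27ac-free peaks lay between hid and skl (3L:18167745-18439942). They covered 4.72 of 35.0 kb of knockdown H3K27me3, where the control had 30.2 kb. Of the 9, 4 were between hid and grim, 3 between grim and rpr and 1 between rpr and skl. A 379 bp peak (fold 1.79) lay on hid and makes up nearly all of the 0.397 kb there in the knockdown, against 0.695 kb in the control. Its -log10 q was 1.08, near the lowest of the knockdown H3K27me3 list (1.01). Neither rpr, grim nor skl held one.

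Of the 16 genes of the cell death machinery, 3 held such a peak (18.8%, against 8.91% of all protein-coding genes). These are too few to set the list apart. By bases the cover was 2.18%, against 0.957% of all gene bases. Dredd, an initiator caspase gene of the immune deficiency pathway, was covered over 0.723 of its 1.92 kb, and Buffy, a Bcl-2 family gene, over 0.897 of 9.07 kb. Neither had any other H3K27me3 or H3K27ac peak in either genotype. The TNF ligand gene egr had 0.234 kb of H3K27me3 in the knockdown, all in an H3K27ac-free peak, against 0.378 kb in the control. Most of the 1.85 kb covered in this list thus lay on Buffy and Dredd, with 1 peak each.

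Of 37 gene lists and families, 15 had more than 0.957% of their bases under H3K27ac-free peaks and 7 had none. Temporal series genes, which time neuroblast fates, held them in 12 of 23 members (52.2%) over 1.13% of bases. The most were in the homeobox gene hth (1.92 kb), the nuclear receptor gene svp (1.68 kb), the POU gene nub (0.872 kb) and the Pax gene ey (0.652 kb). Of these 23 genes 13 are at least 20 kb long. Of all protein-coding genes 8.91% held one, and the share was 40.7% at 20 to 50 kb and 73.6% at 50 kb or more. Among 37 spatial patterning genes 5 held one (13.5%, with 1.26% of bases), with inv, the homeobox partner of en, at 2.79 kb in 3 peaks. In the gut, blood and fat markers the count was 4 of 17 (23.5%, with 1.80% of bases). Among them byn, the Brachyury gene of the hindgut, had 1.75 kb and the Runx gene lz 1.01 kb. Of 16 neuron markers 4 held one (25%), led by the sodium channel gene para (3.01 kb). On para H3K27me3 covered 7.74 kb in the knockdown and none in the control. No control H3K27me3 lay on 88.97% of all protein-coding genes, but their median length is 2.16 kb, against 78.1 kb for para. By bases the neuron markers had 0.995%, near the 0.957% of all genes, and their median length is 27.2 kb.

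None of the 11 glia markers had an H3K27ac-free peak, against 8.91% of all protein-coding genes, and 11 genes are too few to set them apart. Their mean H3K27me3 cover was 39.1% in the knockdown and 12.5% in the control. Neuroblast identity genes other than ac and sc had a single one, of 0.207 kb, on grh, and the whole list had 0.378% of bases. Polycomb group genes held them in 2 of 20 members, jing (0.655 kb) and Jarid2 (0.193 kb), Trithorax group and acetylation genes in 4 of 16, led by the acetyltransferase gene nej (0.726 kb), and Notch pathway genes in 1 of 16, the ligand gene Ser (0.573 kb). By bases these 3 lists had 0.322, 0.556 and 0.301%, below the 0.957% of all genes. Muscle and mesoderm markers held them in 4 of 18, none over 0.398 kb, and epidermis and trachea markers in 6 of 15, with 0.359 and 0.812% of bases. Of 14 housekeeping genes only Act5C held one, of 0.300 kb. That is 7.14% of the list, against 8.91% of all protein-coding genes, with 0.739% of bases.

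Among gene families, the long cell surface genes of the Dpr, DIP, beat and side groups, which pair synaptic partners, held a peak in 24 of 54 members. Their median length is 36.2 kb and 0.879% of their bases were covered, near the 0.957% of all genes. For the nicotinic receptor subunits the values were 5 of 10 and 0.645%. In the short chemosensory genes the count was 5 of 60 gustatory receptors (1.98% of bases), 6 of 60 ionotropic receptors (1.40%), 3 of 51 odorant binding proteins (1.33%) and none of 59 odorant receptors. Cuticular proteins held one in 6 of 119 genes (5.04%, with 1.16% of bases) and cytochromes P450 in 5 of 85 (5.88%, with 0.914% of bases). Of all protein-coding genes 8.91% held one, and of those under 2 kb 2.9%. The chorion family, 2 of 10 genes with 4.98% of bases, rests on the eggshell gene Cp19 (0.523 kb) and on Cp7Fa (0.271 kb).

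Cytoplasmic ribosomal protein genes held one in 2 of 92 (2.17%), RpS5a (0.470 kb) and RpS19b (0.217 kb), and mitochondrial ribosomal protein genes in 1 of 73 (1.37%). Most of these genes are short, and the share of all genes under 2 kb was 2.9%. None was found in 48 proteasome subunit genes or in the 118 genes of the histone family. That family was taken by symbol and includes 1 gene of at least 20 kb, against a median of 0.529 kb. The total knockdown H3K27me3 cover of the proteasome genes averaged 29.7% of the gene, against 1.56% in the control. None of that was in an H3K27ac-free peak. For the histone family the total H3K27me3 cover averaged 93.3% in the knockdown and 74.5% in the control. The histone repeats in it are near-identical, and their reads cannot be placed with certainty.

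**Figure D5:**
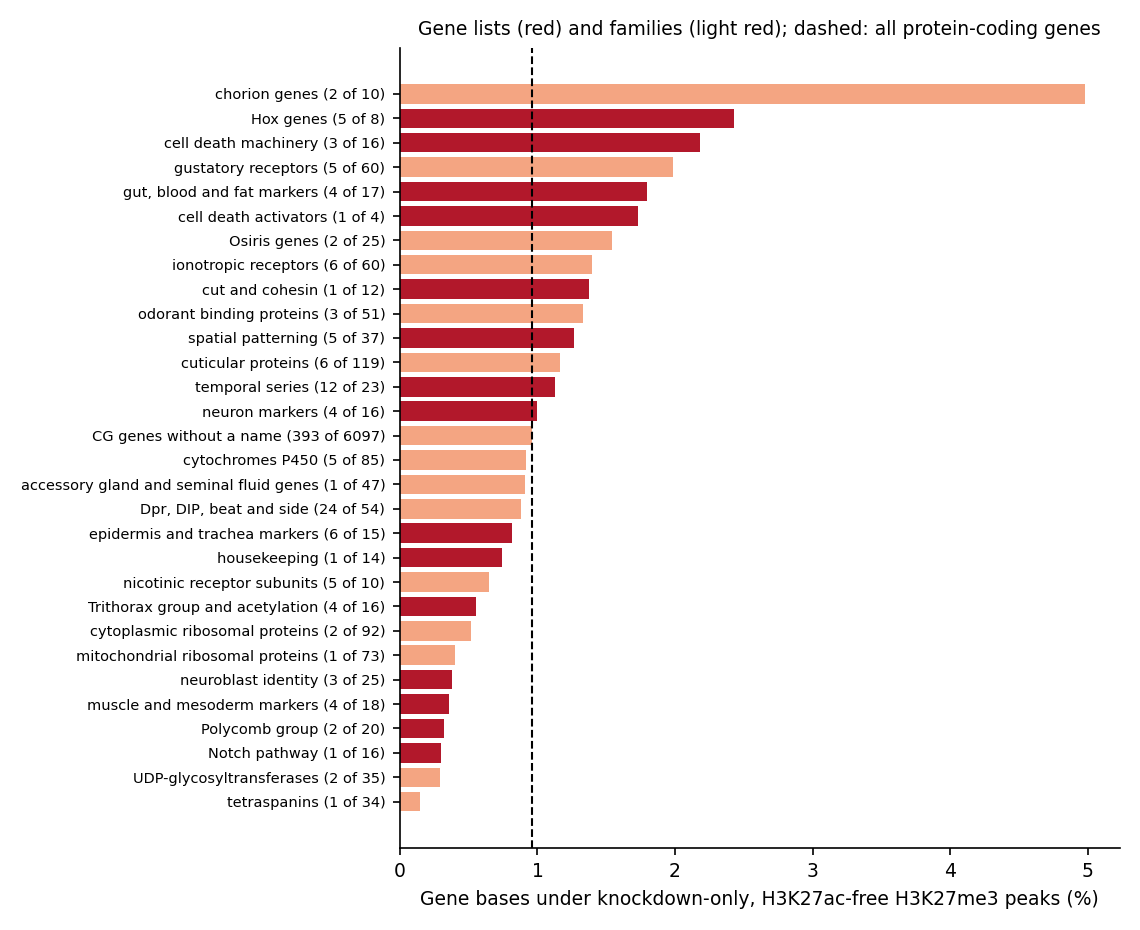
Share of gene bases (%) under H3K27ac-free knockdown-only H3K27me3 peaks for the 30 gene lists and families in which any gene held one, with the number of genes that hold one of the number in the list. The dashed line is the 0.957% of all protein-coding gene bases. Hox genes (2.43%) and cell death machinery (2.18%) are the gene lists with the highest share. In Hox genes 4.43% of the knockdown H3K27me3 was in such peaks. The cell death value rests mainly on 1 peak each on Buffy and Dredd.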

How the data were processed

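Each library was deposited as a headerless MACS2 broadPeak list, called per library against input DNA. Per the submitters' processing notes FastQC, Bowtie2, MACS2 and SICER were used with build dm6. Versions, thresholds and duplicate handling are not stated there. Per the labels, chromatin was digested by micrococcal nuclease (15 U), which favours open chromatin. The authors' fold enrichment is a ratio over background per peak. The deposited -log10 p and -log10 q values are per peak, and the deposited score is 10 times -log10 q truncated to a whole number, except in 2 peaks.

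Overlaps, gaps and cover were computed with Python 3.11.15, NumPy 2.4.6, pandas 2.3.3 and SciPy 1.17.1 and tested on simulated intervals. Files are 0-based, and positions are given 1-based. Gene spans came from RefSeq (Release 6), whose sequences, strands and transcript starts were not used here, so planned base composition and motif counts were left out. Pericentromeric parts were set as 2L above 22, 2R below 5.5, 3L above 23, 3R below 4.5 and X above 22 Mb. Members, gene lists and alternatives were chosen with earlier results of these data known. Of 274 listed symbols, 6 did not match and were not analysed here. Named genes were the 10 with most bases, the 10 with the largest share of at least 1 kb of body, those at the 10 peaks of highest fold and of greatest width, N, SA1, ct, the Hox genes Abd-B, abd-A and Ubx, the cell death genes skl, hid, grim and rpr, and up to 4 of each list.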

Additional observations from a re-analysis of the deposited data

How the results depend on the processing

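The set depends on the overlap rule and on the threshold, and no count of it should be read without them. Of 1366 values of single genes and gene lists under the alternative settings, 676 moved, that is by more than 1.5-fold or to or from none. With no peak of the other lists within 500 bp, the median fold was 1.90 and 63.2% lay on a gene. With none within 2 kb there were 663 peaks over 396 kb on 357 genes, with a median fold of 1.91, 28.7% on X and 9 lists or families above the gene-wide share. With an overlap of up to 50% of the peak allowed there were 5759 over 5596 kb on 3102 genes (median width 802 bp, -log10 q 1.60, X 17.4%, on a gene 70.3%). With knockdown -log10 q of at least 2 there were 621 over 321 kb on 329 genes (316 bp, fold 2.15, -log10 q 2.44, X 19.0016%, on a gene 57.3%). With a fold of at least 2 there were 699 over 387 kb on 362 genes (373 bp, fold 2.13, -log10 q 2.37, X 23.3%, on a gene 56.7%). When only H3K27ac peaks of -log10 q of at least 2 counted, there were 11894 over 9976 kb on 5730 genes (674 bp, fold 1.87, X 14.3%, on a gene 76.5%). With the knockdown list shortened, from its best q down, to the bases that the control list covers, there were 383 over 181 kb on 203 genes (266 bp, fold 2.24, -log10 q 2.76, X 18.02%, on a gene 56.9%, 8 lists). With the knockdown H3K27ac list alone there were 5909 over 3958 kb on 2999 genes (569 bp, fold 1.88, X 15.9%, on a gene 71.3%). With gene spans extended by 2 kb, 1969 genes held one. When every list kept -log10 q values of 2 or more, the median gap to the nearest other peak was 4.52 kb, against 1.17 kb. The share of knockdown-only peaks that were H3K27ac-free was higher on X than on the autosomes in the 7 of these settings in which it was computed, from 8.95 and 3.35% (none within 2 kb) to 80.2 and 72.1% (H3K27ac held to -log10 q of at least 2). No paired analysis was possible because each group has 1 library. Read depth is unknown, so a region without a peak may only be below the threshold.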

Other observations

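H3K27ac-free peaks also lay on genes other than protein-coding ones. They were found on 94 of 1959 lncRNA genes (4.80%), 20 of 503 antisense RNA genes (3.98%), 10 of 245 pseudogenes (4.08%), 10 of 290 tRNA genes (3.45%), 4 of 269 snoRNA genes and 2 of 260 miRNA genes. These genes are short (median 662 bp for lncRNA), and 2.9% of the protein-coding genes under 2 kb held one. Antisense and host genes share these spans, and a peak has no strand.

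By the bounds set for pericentromeric chromatin, with chromosome 4 included, 6.90% of the H3K27ac-free peaks (5.92 to 8.00%) lay there, against 8.14% (7.69 to 8.61%) of the knockdown-only peaks on H3K27ac and 12.3% (11.0 to 13.7%) of the peaks that overlap control H3K27me3. On chromosome 4 the 10 H3K27ac-free peaks had a median fold of 2.19 and a median width of 225.5 bp, and 3 of them lay on the Pax gene ey.

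The Y chromosome was set aside. By the same rule it held 21 H3K27ac-free knockdown-only peaks of 194 (10.8%, 6.83 to 16.1%) and, with the genotypes exchanged, 25 control-only peaks of 79 (31.6%, 21.6 to 43.1%).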
